A study of Mus musculus with 22 samples.

Results

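Of the 37786 genes counted in the anterior cingulate cortex (ACC), 37 were taken as interferon response and antigen presentation genes, named for what their products do and matched by symbol. They were sorted into 9 roles: 5 transcription factors (Irf1, Irf7, Irf9, Stat2, Stat3), 3 Ifit genes, 3 membrane restriction factors (Ifitm2, Ifitm3, Bst2), 8 other antiviral effectors, 7 genes of ubiquitin, ISG15 and ADP-ribosylation, 2 guanylate-binding proteins (Gbp2, Gbp3), 3 immunoproteasome subunits (Psmb8, Psmb9, Psmb10), 3 genes of peptide transport and loading (Tap1, Tap2, Tapbp) and 3 class I molecules (B2m, H2-K1, H2-D1). All 37 had at least 10 counts in every mouse and entered every test. The animals were 22 adult male wildtype C57BL/6J mice. Both groups received an AAV5 vector in the basolateral amygdala (BLA) on both sides, which expressed the light-gated channel ChR2 fused to EYFP from the CaMKIIa promoter, and an optic fibre in the ACC on one side. In 12 control mice the light stayed off, and in 10 stimulated mice blue light was given to the amygdalar terminals over 9 sessions. Per the study's methods, ACC tissue of both sides was taken 2 days after the last session. The comparison therefore asks what repeated activation of this pathway leaves changed in bulk ACC tissue at that time, the side without a fibre included. Virus, surgery and fibre were common to both groups, and no mice without them were compared here.

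Interferons are secreted when a cell senses viral or misplaced nucleic acid. Type I interferon signals through its receptor and the kinases Jak1 and Tyk2 to a complex that contains Stat2 and Irf9 and binds interferon-stimulated response elements, whereas interferon-gamma acts mainly on gamma-activated sequences. The induced genes block viral entry, replication and translation, and raise the output of the class I pathway, in which the immunoproteasome cleaves proteins, Tap1 and Tap2 carry the peptides into the endoplasmic reticulum, Tapbp loads them, and class I heavy chains with B2m display them at the surface. In the brain these genes are known from microglia, endothelial cells and astrocytes, and class I molecules also from neurons.

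Promoter sequence shows what many of these genes share besides their name. RefSeq windows on GRCm38.p6, from 250 bases before to 50 bases after a transcription start, were held for 31 of the 37 genes. The core of the interferon-stimulated response element, GAAANNGAAA on either strand, occurred in a window of 13 of these 31 genes (41.9%), against 3.99% of the 27025 genes in the table and 3.44% of its 32851 windows. The 13 genes were B2m, Bst2, Gbp2, Gbp3, Ifih1, Ifit1, Ifit3, Ifitm2, Ifitm3, Isg15, Rsad2, Stat2 and Trim30a. The gamma-activated sequence TTCNNNGAA, which reads the same on both strands, occurred in 6 of the 31 (19.4%: Bst2, Ifi35, Ifit2, Ifitm3, Irf1, Psmb8), against 9.55% of all genes. The motifs overlapped each other in Bst2 and Ifitm3. A match of letters is not in itself a binding site. Stretches from 6 genes of 5 roles are shown in their coding direction, 5′ to 3′, with the response element core in capitals, because they display how the repeated element is spaced; Ifit1 and Ifit3 hold 2 separate copies, and Isg15 holds 3 that overlap.
Ifit1: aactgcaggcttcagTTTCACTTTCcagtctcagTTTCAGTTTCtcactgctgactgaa
Ifit3: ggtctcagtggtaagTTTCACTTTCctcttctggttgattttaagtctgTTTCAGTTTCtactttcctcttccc
Isg15: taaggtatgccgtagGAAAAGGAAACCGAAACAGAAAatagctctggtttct
Rsad2: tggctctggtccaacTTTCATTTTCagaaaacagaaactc
Gbp2: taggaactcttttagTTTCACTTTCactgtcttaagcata
B2m: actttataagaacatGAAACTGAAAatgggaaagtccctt
On GRCm38.p6 these lie at chr19:34640770-34640828 (+ strand) for Ifit1, chr19:34583358-34583431 (+ strand) for Ifit3, chr4:156200860-156200911 (- strand) for Isg15, chr12:26456548-26456587 (- strand) for Rsad2, chr3:142620589-142620628 (+ strand) for Gbp2 and chr2:122147533-122147572 (+ strand) for B2m. The first capital base stands 104 bases before the start in Ifit1, 156 in Ifit3, 78 in Isg15, 120 in Rsad2, 59 in Gbp2 and 139 in B2m. In the GRCm38 annotation 7 of the 37 genes lie on chromosome 17, where the class I heavy chains, Tapbp and the cluster of Psmb9 (chr17:34181987-34187764), Tap1 (chr17:34187553-34197225), Psmb8 (chr17:34197721-34201454) and Tap2 (chr17:34203527-34216321) are found, and the 3 Ifit genes lie on chromosome 19. Psmb9 and Tap1, which are transcribed away from each other, share 275 bases of their 300-base windows, and neither window held a response element core or a gamma-activated sequence.

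Libraries held 23090483 to 43668462 counts, and the library numbers in the labels fall into a run of 1 to 11 (6 control and 4 stimulated mice) and a run of 12 to 23 (6 and 6), without a number 7. The run was a term in the test, since 68.1% of the 17524 genes tested differed between runs at an adjusted p under 0.05. The labels do not call it a batch. Mitochondrial genes took 3.05 to 4.81% of the counts in controls 1, 2 and 3, and at most 2.80% in the other 19 mice. Markers of excitatory neurons (10 genes, 3377 to 8097 CPM in sum) and inhibitory neurons (8 genes, 627 to 1088 CPM) were present in every mouse. Astrocyte markers summed to 3681 to 7994 CPM, microglial markers to 830 to 1433 CPM and endothelial markers to 550 to 938 CPM, and 5 of 8 T cell markers had a median under 10 counts.

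Levels of the 37 genes covered a wide range. Compared per kilobase of exon (RPKM, median of 22 mice), B2m, the light chain of all class I molecules, was highest at 108, followed by H2-D1 (37.1), the immunoproteasome subunit Psmb10 (32.7), Ifitm3, which blocks viral fusion (26.9), Ifi27, a mitochondrial and nuclear-envelope protein (26.7), H2-K1 (17.1) and Tapbp (14.5). At the other end stood Trim30a, a ubiquitin ligase of the Trim family (0.583), Parp14, a mono-ADP-ribosyltransferase (0.214) and Ifi44 (0.172). Psmb10 stood far above its partners Psmb8 (1.803) and Psmb9 (0.918), and Tapbp above Tap2 (3.01) and Tap1 (0.835). Exon length joins all annotated transcripts of a gene (1705 bases for Psmb10, 3381 for Psmb8 and 3660 for Psmb9). Where the transcript expressed is shorter, RPKM is too low. Classical induced genes were low but measurable in this tissue, with Isg15 at 2.27, Ifit1 at 1.91, Usp18 at 0.945, Oasl2 at 0.797 and Rsad2 at 0.649 RPKM. The lowest count of any of the 37 genes in any mouse was 16 and the highest 7558. Per the study's methods only uniquely aligned reads were counted. Reads that fit related genes equally well (such as H2-K1 and H2-D1, Ifitm2 and Ifitm3, Ifit3 and Ifit3b, or Gbp2 and Gbp3) may therefore be missing from the counts. The strand setting of the counting is not given in the sources used here, and exons overlap for 17 of the 37 genes, among them Parp9 with Dtx3l (458 bases) and Psmb9 with Tap1 (212 bases), so reads in these stretches cannot be assigned with certainty.

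**Figure D1:**
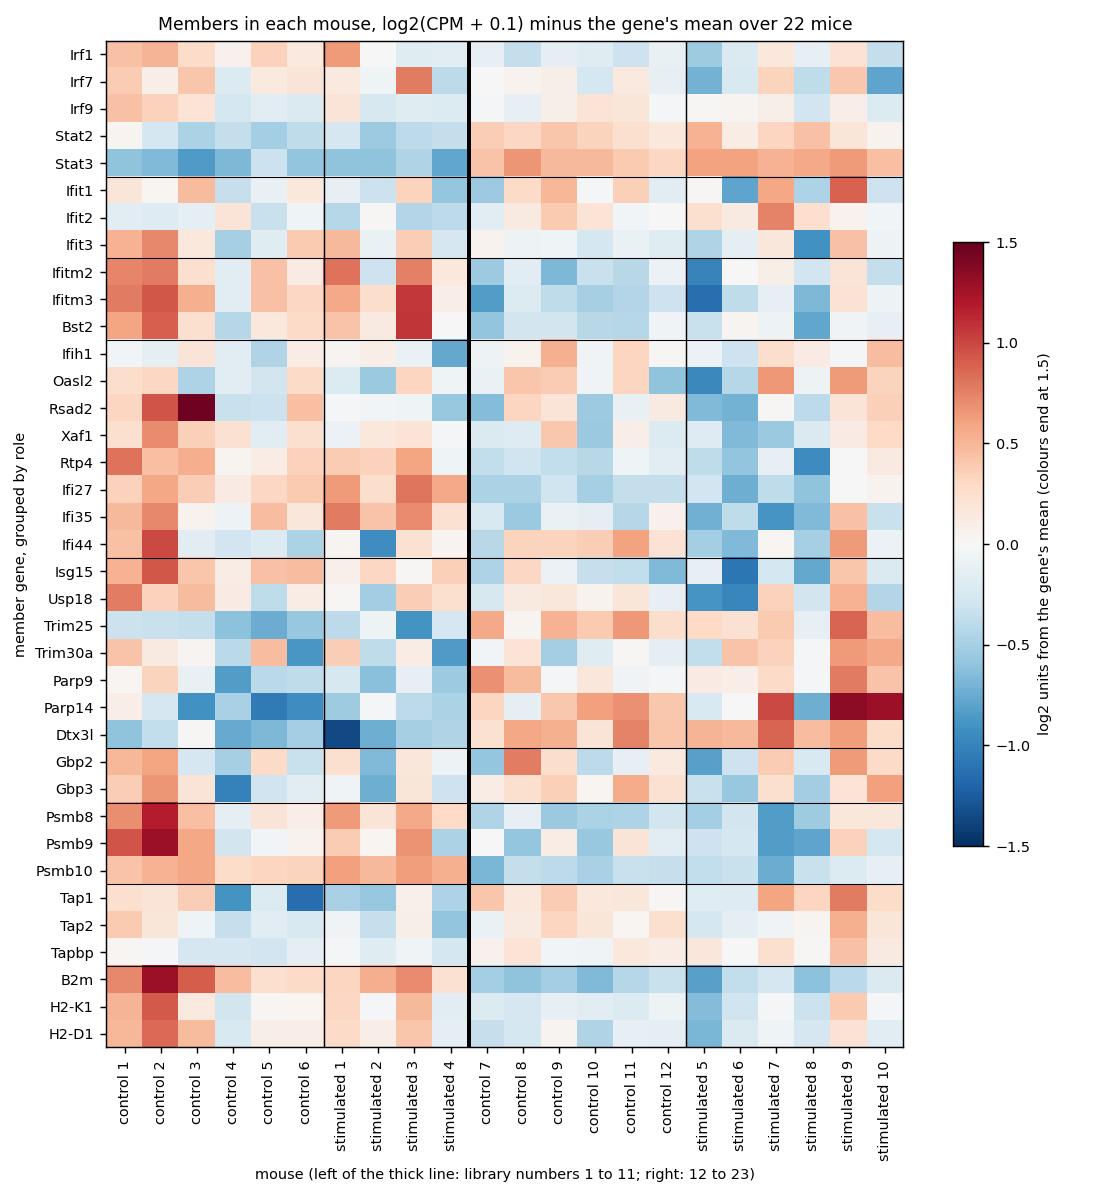
Each row is 1 of the 37 genes and each column 1 of the 22 mice, coloured by log2(CPM + 0.1) minus the gene's mean over all mice (red higher, blue lower; colours end at 1.5 log2 units). Stat3 and B2m change colour at the thick line between library numbers 1 to 11 and 12 to 23, and controls 1 and 2 and stimulated 9 are red in many rows.

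No interferon response or antigen presentation gene passed the test between stimulated and control mice. In edgeR's quasi-likelihood test with the run in the model, 0 of 37 reached an adjusted p under 0.05 and 0 of 37 an unadjusted p under 0.05, while over all 17524 genes tested 11.5% reached the unadjusted threshold and 0% (no gene) the adjusted one. By the DESeq2 Wald test 0 of 37 had an unadjusted p under 0.05, against 6.97% of the 37571 genes with any count, as no count minimum was set there. By limma voom 3 of 37 did, against 16.3% of the 17524 genes. Neither gave an adjusted p under 0.05 for any of the 37. The log2 fold change (stimulated minus control) was negative for 25 genes and positive for 12, with a median of -0.043, against 0.0093 over all genes tested. This balance turned when controls 1 to 3 were left out (13 negative, median 0.032) or the mitochondrial share was added to the model (16 negative, median 0.031). A negative value turned positive for 12 genes in the former case (B2m, Dtx3l, Gbp2, H2-D1, H2-K1, Ifit2, Ifit3, Irf1, Parp9, Psmb9, Rtp4 and Tap1) and for 9 of these in the latter. Many values that kept their sign moved by over 1.5 times as well: without controls 1 to 3 for 6 genes away from zero and 14 towards it, with the mitochondrial share for 10 and 9, and without stimulated 9 for 12 and 5. Single log2 fold changes lay between -0.38 and 0.23, with standard errors from 0.059 to 0.22. The 95% interval lay within 0.5 log2 units (1.41-fold) of zero for 29 of the 37 genes and within 1 log2 unit (2-fold) for all 37, so differences inside these intervals are below what the spread between mice resolves. In bulk tissue fewer cells of a type and less RNA per cell cannot be told apart.

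**Figure D2:**
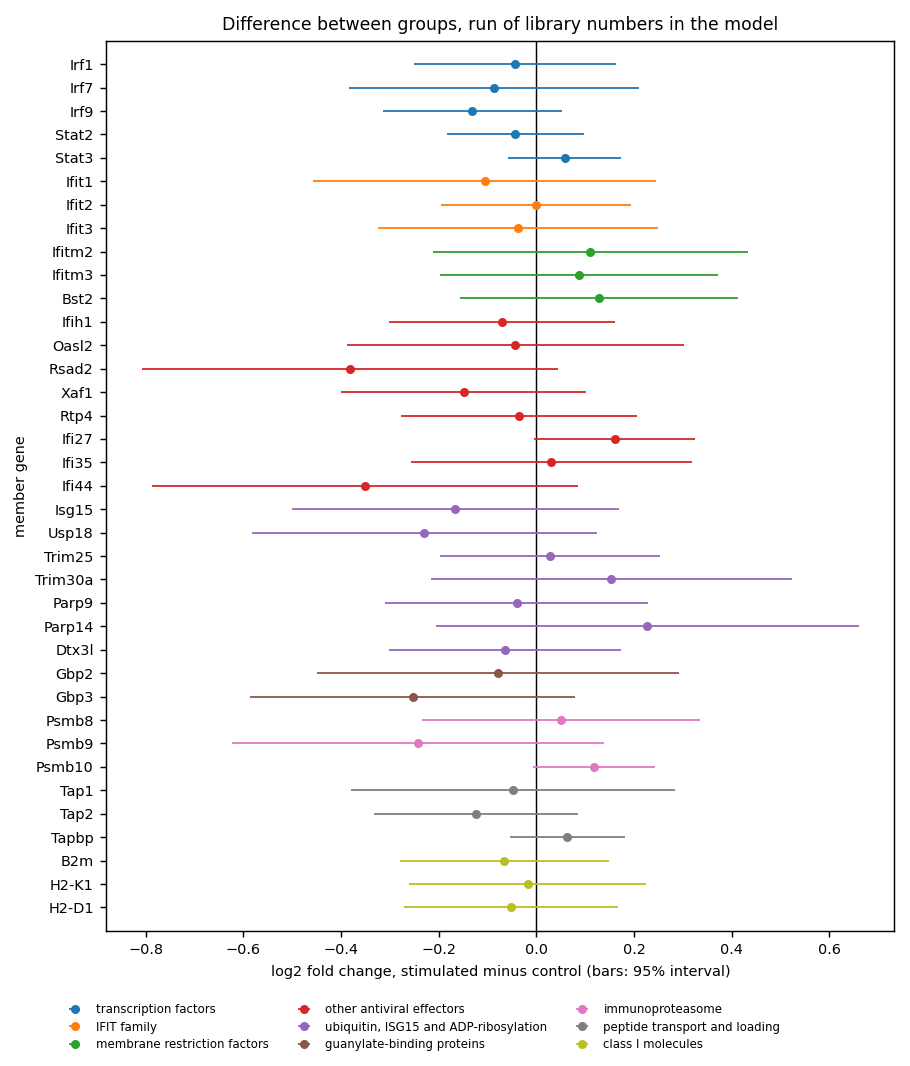
Points are log2 fold changes of the 37 genes (stimulated minus control, 10 against 12 mice), bars are 95% intervals and colours are roles. Every interval crosses zero; the point farthest to the left is Rsad2 at -0.38 and the farthest to the right Parp14 at 0.23.

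Among the transcription factors, Irf9, the DNA-binding part of the type I interferon complex, ranged over 8.03 to 13.1 CPM (median 9.91) in control mice and 7.91 to 11.1 CPM (median 9.15) in stimulated mice. The groups overlapped over most of their range, and the log2 fold change was -0.13 ± 0.094 (SE), p = 0.172, adjusted p = 0.588. Stat2, its partner, Stat3, which carries signals of interleukin-6 and related cytokines, Irf1, an activator of class I genes, and Irf7, which amplifies type I interferon production, had log2 fold changes of -0.043, 0.058, -0.043 and -0.087. Stat3 ranged over 43.9 to 126 CPM (median 80.9) in controls and 46.2 to 124 CPM (median 111) in stimulated mice, with both runs in each range. All 3 Ifit genes, whose products bind foreign RNA and restrain translation, had values of -0.11 for Ifit1, -0.00053 for Ifit2 and -0.038 for Ifit3. Without stimulated 9, the highest mouse of its run for Ifit1 and Ifit3, these were -0.23 and -0.11. The 3 membrane restriction factors had positive values, 0.11 for Ifitm2, 0.087 for Ifitm3 and 0.13 for Bst2, the tether that holds budding virus, and none passed the test. Without controls 1 to 3 they stood at 0.22, 0.20 and 0.24, and Ifitm3 at 0.018 without stimulated 9. Ifitm3 ranged over 10.9 to 37.2 CPM (median 17.1) in controls and 8.84 to 40.8 CPM (median 19.7) in stimulated mice.

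Of the other antiviral effectors, Ifi27 had the smallest p of the 37 genes. It ranged over 27.3 to 57.8 CPM (median 36.7) in controls and 23.1 to 67.2 CPM (median 39.2) in stimulated mice, with its lowest and its highest value both in the stimulated group, and its log2 fold change was 0.16 ± 0.084 (SE), p = 0.0686, adjusted p = 0.4699. Rsad2, or viperin, which makes a chain-terminating nucleotide, ranged over 1.797 to 8.05 CPM (median 3.23) in controls and 1.72 to 3.72 CPM (median 2.77) in stimulated mice. Its highest values came from controls 3 and 2 (8.05 and 5.597 CPM), above every stimulated mouse, and the log2 fold change was -0.38 ± 0.22 (SE), p = 0.0906, adjusted p = 0.4999. Without controls 1 to 3 the value of Rsad2 was -0.11. Ifi44 ranged over 0.715 to 2.15 CPM (median 1.26) in controls and 0.489 to 1.65 CPM (median 1.005) in stimulated mice, where the lowest mouse of all was a stimulated one and the highest control 2, and the log2 fold change was -0.35 ± 0.22 (SE), p = 0.127, adjusted p = 0.539; without controls 1 to 3 it was -0.18. Xaf1, a partner of the apoptosis inhibitor Xiap, ranged over 4.07 to 9.997 CPM (median 6.83) and 3.78 to 7.47 CPM (median 5.82) in the same order. Its groups overlapped widely, and the log2 fold change was -0.15 ± 0.13 (SE), p = 0.254, adjusted p = 0.662. The RNA sensor Ifih1 (-0.071), Oasl2 (-0.043), Rtp4 (-0.036) and Ifi35 (0.031) lay nearer to zero.

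In the group of ubiquitin, ISG15 and ADP-ribosylation, Usp18, the protease that removes ISG15 and damps the type I receptor, ranged over 1.83 to 4.21 CPM (median 2.66) in controls and 1.18 to 3.54 CPM (median 2.23) in stimulated mice. The lowest mouse was a stimulated one and the highest a control, with a log2 fold change of -0.23 ± 0.18 (SE), p = 0.215, adjusted p = 0.632. Isg15, the ubiquitin-like modifier itself, had a value of -0.17. The ligases Trim25 and Trim30a had values of 0.028 and 0.15, and Trim30a ranged over 1.23 to 3.27 CPM (median 2.32) in controls and 1.25 to 3.696 CPM (median 2.77) in stimulated mice. Trim25 ranged over 3.56 to 9.54 CPM (median 5.502) in controls and 3.18 to 11.1 CPM (median 6.41) in stimulated mice. Parp9 and Dtx3l, which act as a pair, had values of -0.041 and -0.065. Dtx3l ranged over 3.38 to 9.803 CPM (median 6.27) in controls and 2.201 to 10.7 CPM (median 7.53) in stimulated mice, again overlapping. Parp14 ranged over 0.957 to 3.45 CPM (median 2.09) in controls and 1.23 to 5.505 CPM (median 1.93) in stimulated mice. Stimulated 9, 10 and 7 (5.505, 5.25 and 4.28 CPM) stood above every control, and the log2 fold change was 0.23. This was 0.12 without stimulated 9 and 0.38 with the mitochondrial share in the model. Of the guanylate-binding proteins, large GTPases that attack pathogen vacuoles, Gbp3 ranged over 3.47 to 11.3 CPM (median 8.23) in controls and 4.24 to 10.9 CPM (median 6.27) in stimulated mice. Its log2 fold change was -0.25 ± 0.17 (SE), p = 0.148, adjusted p = 0.5601, and that of Gbp2 was -0.079.

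In the class I pathway, Psmb10, an inducible catalytic subunit that is also expressed at rest, ranged over 38.8 to 93.8 CPM (median 62.6) in controls and 37.3 to 96.9 CPM (median 55.8) in stimulated mice. These ranges nearly coincided, each spanning both runs, and with the run in the model the log2 fold change was 0.12 ± 0.064 (SE), p = 0.0741, adjusted p = 0.479. Psmb9 ranged over 2.25 to 8.45 CPM (median 3.47) in controls and 1.87 to 5.49 CPM (median 2.82) in stimulated mice, with a log2 fold change of -0.24 ± 0.19 (SE), p = 0.223, adjusted p = 0.639. Without controls 1 to 3 this value was 0.0047, and others moved as well, to -0.033 for Tap2, -0.075 for Gbp3, -0.11 for Usp18, -0.016 for Irf9 and -0.073 for Xaf1, whereas Ifi27 stood at 0.18 and Psmb10 at 0.15. Psmb8 had a log2 fold change of 0.05 over all mice and 0.22 without controls 1 to 3. Tap2, which forms the peptide pump with Tap1, ranged over 8.997 to 15.1 CPM (median 12.1) and 7.54 to 16.6 CPM (median 11.1), controls first, with a log2 fold change of -0.12 ± 0.11 (SE), p = 0.256, adjusted p = 0.664. Tap1 (-0.048) and Tapbp (0.063) were nearer to zero over all mice. Without controls 1 to 3 they stood at 0.18 and 0.094, farther from zero than Tap2. B2m ranged over 68.7 to 266 CPM (median 108) in controls and 61.7 to 178 CPM (median 92.5) in stimulated mice, and its log2 fold change was -0.066 ± 0.11 (SE), p = 0.554, adjusted p = 0.846. H2-D1 ranged over 74.7 to 185 CPM (median 99.6) in controls and 63.4 to 137 CPM (median 95.5) in stimulated mice, with a log2 fold change of -0.051, and H2-K1 stood at -0.018. The highest value of each of these 3 class I genes belonged to control 2, and the sign of all 3 turned without this mouse alone (B2m 0.0049, H2-D1 0.0069, H2-K1 0.058). It also turned without controls 1 to 3 (0.091, 0.087 and 0.12, in the same order) and with the mitochondrial share in the model (0.066, 0.057 and 0.11).

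**Figure D3:**
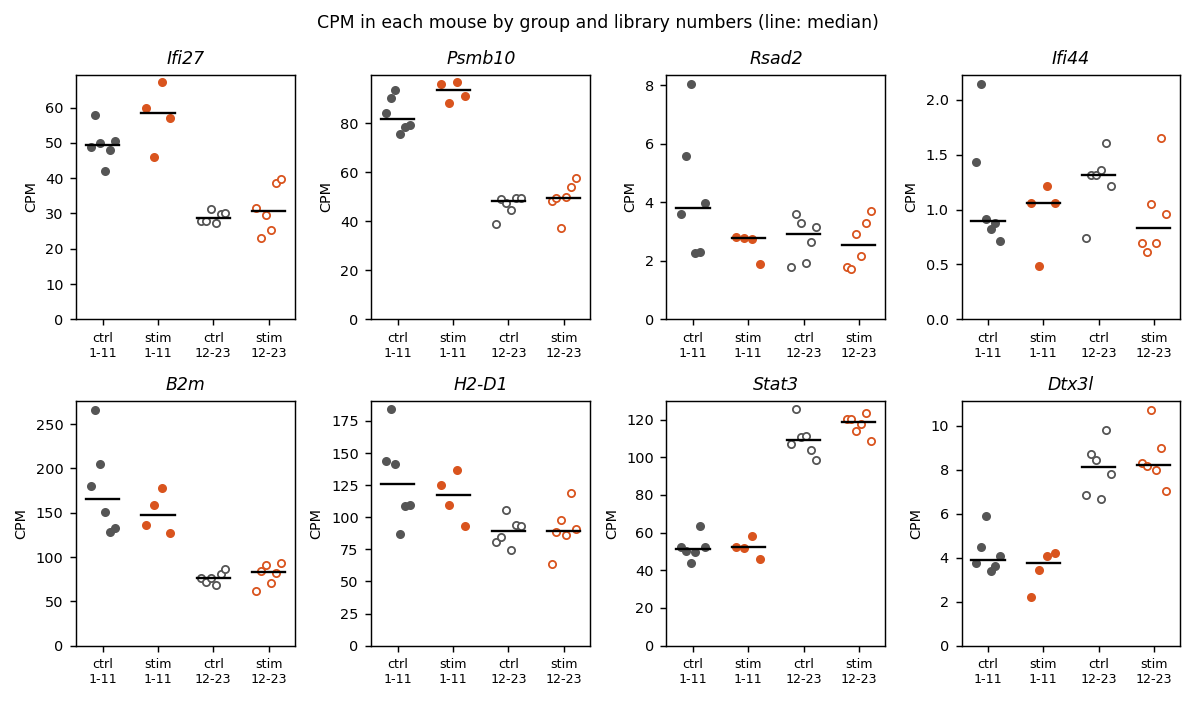
CPM of 8 genes in each mouse, from 0 on a linear axis, in control (grey) and stimulated (orange) mice of library numbers 1 to 11 (filled) and 12 to 23 (open), with the median as a line. Groups overlap within each run in all 8 panels, while the runs stand apart for Ifi27, Psmb10, B2m, Stat3 and Dtx3l.

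Each run was also tested alone. Among library numbers 1 to 11 (6 control, 4 stimulated) 1 of 37 genes had an unadjusted p under 0.05, against 5.56% of all genes tested; this was Rsad2, with a log2 fold change of -0.73 ± 0.33 (SE), p = 0.0452, adjusted p = 0.869. The median over the 37 genes was -0.14 there, and 26 were negative. Among library numbers 12 to 23 (6 against 6) 0 of 37 had an unadjusted p under 0.05, against 12.4% of all genes, the median was -0.0057 and 19 were negative. The sign was the same in both runs for 24 of 37 genes, with 16 negative and 8 positive in both. The interaction of group and run had an unadjusted p under 0.05 for 0 of 37 genes, against 8.01% of all genes tested, so no gene was shown to respond differently in the runs. With group as the only term 0 of 37 genes had an unadjusted p under 0.05, against 3.61% of all genes.

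Markers of cell types were compared between the groups as well, and none had an adjusted p under 0.05. All 12 oligodendrocyte markers had an unadjusted p under 0.05 with lower values after stimulation (median -0.69 on the log2 scale), their sum ranging from 3266 to 20043 CPM in controls and from 2400 to 5885 CPM in stimulated mice. The interaction of group and run had an unadjusted p under 0.05 for 12 of 12 of these markers and an adjusted p under 0.05 for 0 (median -1.23), and the mean marker score (log2 CPM centred over all mice) was -0.0998 in controls and -0.104 in stimulated mice of library numbers 1 to 11. Controls 9 and 11 stood at 2.10 and 1.60, and every other mouse at 0.23 or below. Against the 11.5% of all genes, 0 of 17 microglial markers had an unadjusted p under 0.05 between groups (median 0.080), 1 of 15 endothelial markers (median -0.096), 0 of 10 astrocyte markers (median -0.15) and 1 of 8 mural cell markers (median -0.10). The count was 2 of 10 for excitatory neurons (median 0.063), 2 of 8 for inhibitory neurons (median 0.062), 2 of 5 for the choroid plexus (median -0.20), 0 of 7 for fibroblasts and meninges, 0 of 3 for T cells and 0 of 5 for red blood cells. Their part in the values of the 37 genes was not tested.

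Between the runs of library numbers, unlike between the groups, many of the 37 genes differed. An adjusted p under 0.05 was reached by 24 of 37 (64.9%), against 68.1% of all genes tested, a share near the background. Of these, 9 were higher in library numbers 12 to 23 (24.3% of the 37, against 33.7% of all genes) and 15 were lower (40.5%, against 34.3%). CPM did not overlap between the runs for 6 genes (16.2%; B2m, Dtx3l, Ifi27, Psmb10, Stat2 and Stat3), against 26.1% of all genes. Animals, dissection, RNA and libraries may all differ between the runs and cannot be told apart.

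Genes of one pathway went opposite ways between the runs. All 3 class I genes, all 3 immunoproteasome subunits and all 3 membrane restriction factors were lower in library numbers 12 to 23, whereas Tap1 (0.49) and Tapbp (0.26) were higher. Of all genes 34.3% were called lower and 33.7% higher. With the mitochondrial share in the model 1 of 3 class I genes and 2 of 3 immunoproteasome subunits still passed. Without controls 1 to 3 it was 2 of 3 in each of these roles. B2m ranged over 128 to 266 CPM (median 155) in library numbers 1 to 11 and 61.7 to 93.6 CPM (median 78.6) in 12 to 23, a log2 difference of -1.07 ± 0.11 (SE), adjusted p = 2.89e-09. Psmb10 ranged over 75.6 to 96.9 CPM (median 89.3) and 37.3 to 57.5 CPM (median 49.1), in the same order, with -0.88 ± 0.063 (SE), adjusted p = 6.14e-12. For both genes every mouse of the earlier numbers stood above every mouse of the later ones. Ifitm3 ranged over 17.3 to 40.8 CPM (median 27.4) and then 8.84 to 22.6 CPM (median 14.9), a difference of -0.90 ± 0.14 (SE), adjusted p = 4.65e-06. Ifi27 ranged over 42.1 to 67.2 CPM (median 50.2) and then 23.1 to 39.9 CPM (median 29.8), a difference of -0.82 ± 0.084 (SE), adjusted p = 3.34e-09. Ifitm3 overlapped between the runs and Ifi27 did not.

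Stat3 went the other way, ranging over 43.9 to 63.5 CPM (median 52.2) in library numbers 1 to 11 and 98.3 to 126 CPM (median 113) in 12 to 23, a log2 difference of 1.12 ± 0.06 (SE), adjusted p = 2.78e-14. Dtx3l ranged over 2.201 to 5.89 CPM (median 3.92) and then 6.66 to 10.7 CPM (median 8.23), with 1.09 ± 0.12 (SE), adjusted p = 1.76e-08. No mouse of one run reached the other run in either gene. Parp14 ranged over 0.957 to 2.27 CPM (median 1.48) and then 1.23 to 5.505 CPM (median 2.82), a difference of 0.998 ± 0.23 (SE), adjusted p = 0.000353. Trim25 ranged over 3.18 to 5.71 CPM (median 4.63) and then 5.55 to 11.1 CPM (median 7.93), a difference of 0.85 ± 0.12 (SE), adjusted p = 4.34e-07. Both overlapped between the runs. Also higher were Stat2 (0.64), Parp9 (0.54) and Ifit2 (0.36), and lower were Psmb8 (-0.79), Ifi35 (-0.72), Ifitm2 (-0.71), Bst2 (-0.69), Rtp4 (-0.66), Isg15 (-0.64), Psmb9 (-0.61), H2-D1 (-0.46), Irf1 (-0.39), H2-K1 (-0.38) and Xaf1 (-0.31). Without controls 1 to 3, H2-K1 stood at -0.21 (adjusted p = 0.0876), Psmb9 at -0.32 (adjusted p = 0.122) and Xaf1 at -0.22 (adjusted p = 0.156), and no longer passed. Gbp3 and Tap2 passed instead, both higher, so 23 of 37 were called (11 higher and 12 lower; 65.0% of all genes). With the mitochondrial share in the model 21 of 37 passed (11 higher and 10 lower; 61.3% of all genes). H2-K1 then stood at -0.039 (adjusted p = 0.814), Psmb9 at -0.073 (adjusted p = 0.776) and Xaf1 at -0.12 (adjusted p = 0.527), joined among the lost genes by Irf1 (-0.22, adjusted p = 0.15), Ifit2 (0.29, adjusted p = 0.0637) and H2-D1 (-0.17, adjusted p = 0.216), while Gbp3, Irf9 and Tap2 were gained, all higher. Of the genes that still passed, Psmb8 moved to -0.37, Ifitm2 to -0.46, Bst2 to -0.44, Rtp4 to -0.42, Parp9 to 0.85 and Tap1 to 0.84 with this share, and without controls 1 to 3 Tap1 moved to 0.77 and H2-D1 to -0.29. In the test over all mice, without that share, the 13 genes that did not pass included Ifit1, Ifit3, Irf7, Irf9, Oasl2, Rsad2, Usp18 and both guanylate-binding proteins.

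The direction of the difference between runs went with exon length, in these genes and in all genes. Of all genes tested with under 1 kb of exon 9.95% had a positive log2 difference (median -0.93), of those with 1 to 2 kb 10.4% (median -0.64), with 2 to 4 kb 34.5% (median -0.19), with 4 to 6 kb 63.9% (median 0.21) and over 6 kb 78.0% (median 0.45). Among the 37, all 5 genes under 1 kb (B2m, Bst2, Ifitm2, Ifitm3, Isg15) and all 4 of 1 to 2 kb (Ifi27, Ifi35, Ifit3, Psmb10) had negative differences, with medians of -0.71 and -0.77. Of the 14 genes of 2 to 4 kb 6 were positive, of the 9 of 4 to 6 kb 7, and all 5 genes over 6 kb (Ifi44, Ifih1, Oasl2, Parp14, Stat3). The 9 genes called higher had 3628 to 9527 bases of exon (median 5725), and the 15 called lower had 655 to 4689 (median 1727). As exon length joins all annotated transcripts, the transcript expressed may belong to a shorter class. The part of transcript length in these differences was not tested. Between stimulated and control mice the medians of all genes in the same length classes stayed between -0.021 and 0.050.

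**Figure D4:**
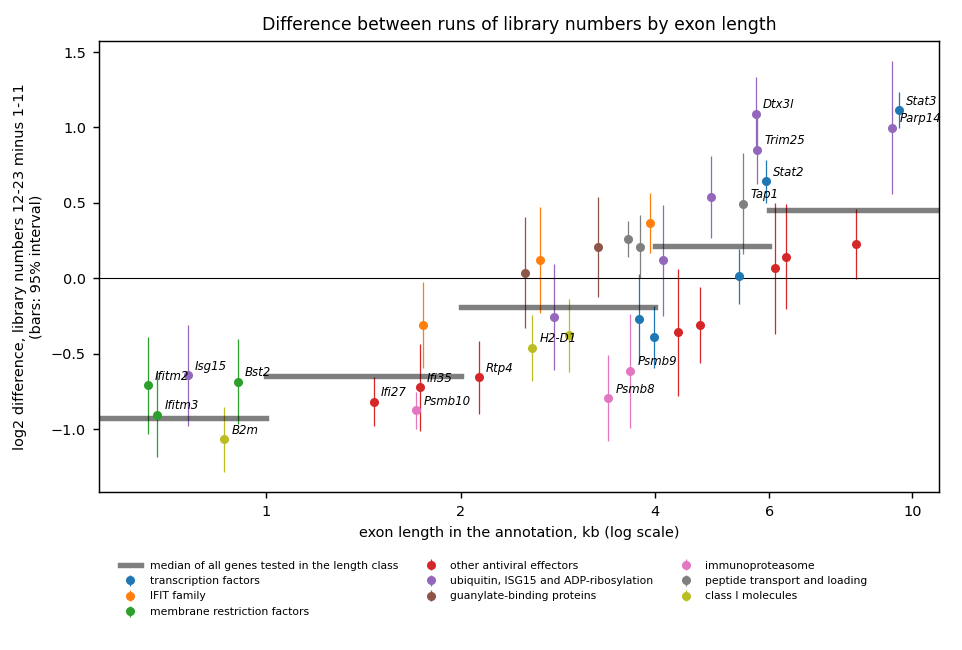
Points are the 37 genes at their exon length (log scale, kb) and their log2 difference between library numbers 12 to 23 and 1 to 11, with 95% intervals, coloured by role; grey lines are medians of all genes tested in 5 length classes. Short genes such as B2m, Ifitm3 and Bst2 lie below zero and long ones such as Stat3 and Parp14 above.

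Single mice stood out across roles. Within library numbers 12 to 23, stimulated 9 had the highest CPM of 12 mice for 21 of the 37 genes (56.8%), against 8.18% of all genes tested, and the lowest for 0. Ifit1 was at 9.52 CPM in this mouse, against 2.90 to 7.65 CPM (median 4.98) in the other 11. Parp14 was at 5.505 CPM, against 1.23 to 5.25 CPM (median 2.81). H2-K1 was at 68.3 CPM, against 33.2 to 51.6 CPM (median 45.1). Without this mouse the median log2 fold change over the 37 genes was -0.089 and 27 were negative. Stimulated 9 also had the highest scores of all 22 mice for endothelial (0.51) and mural cell markers (0.80). Its score for fibroblasts and meninges was 1.24. Stimulated 7 scored 0.12, 0.73 and 1.38 in the same order. This mouse was highest of its run for 3 of the 37 genes (8.11%, against 13.9% of all genes). The part of these markers in the values of either mouse was not tested. At the low end of the same run stood other stimulated mice: stimulated 6 was lowest for 10 of the 37 genes (27.0%, against 4.92% of all genes), stimulated 5 for 9 (24.3%, against 6.74%) and stimulated 8 for 6 (16.2%, against 7.99%).

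Within library numbers 1 to 11 the highest values were spread over controls 1 to 3 and stimulated 3. Control 2 was highest of 10 mice for 12 of the 37 genes (32.4%, against 14.8% of all genes), among them B2m, H2-K1, H2-D1, Psmb8, Psmb9, Isg15, Gbp2 and Gbp3. Psmb9 was at 8.45 CPM in this mouse, against 2.43 to 6.66 CPM (median 3.54) in the other 9, and H2-K1 at 98.6 CPM, against 43.1 to 74.1 CPM (median 53.2). Control 1 was highest for 7 genes (18.9%, against 15.6%), control 3 for 5 (13.5%, against 10.3%) and stimulated 3 for 6 (16.2%, against 8.50%), the last including Irf7, Ifitm3 and Bst2. Control 4 was lowest for 12 genes (32.4%, against 11.8%) and stimulated 4 for 8 (21.6%, against 10.6%). Controls 1 and 2 had the highest mitochondrial shares of all mice (4.41 and 4.81%), and stimulated 9 had 1.20%. Controls 1 and 2 also had the highest marker scores of their run for endothelial cells (0.15 and 0.26), astrocytes (0.43 in both) and microglia (0.35 and 0.43). Their scores were the lowest of the run for excitatory neurons (-0.28 in both) and inhibitory neurons (-0.30 and -0.27). With the mitochondrial share in the model the median log2 fold change over the 37 genes was 0.031, as given above; the part of the cell markers was not tested.

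**Figure D5:**
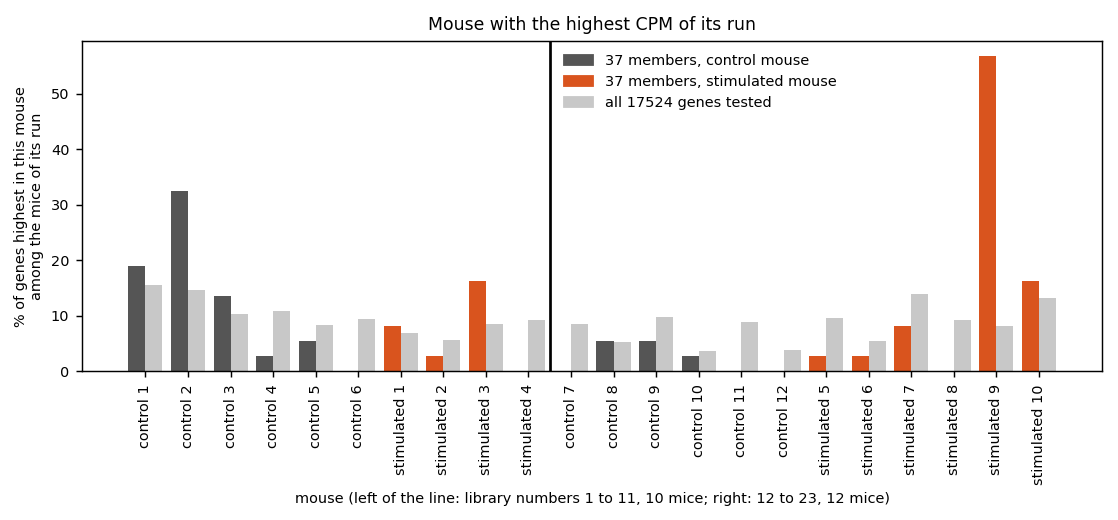
Bars give, for each mouse, the percentage of the 37 genes (control grey, stimulated orange) and of all 17524 genes tested (light grey) for which it had the highest CPM of its run. Stimulated 9 reached 56.8% of the 37 genes and control 2 reached 32.4%, against 8.18% and 14.8% of all genes.

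A score per mouse was formed by centring the log2 CPM of each gene over all mice and averaging the 37 genes. It ranged from -0.26 to 0.44 (median -0.014) in controls and from -0.33 to 0.37 (median -0.035) in stimulated mice. Control 2 (0.44), stimulated 9 (0.37) and control 1 (0.34) were highest and stimulated 5 (-0.33), stimulated 8 (-0.29) and control 4 (-0.26) lowest, so both groups held mice at both ends. The difference of group means was -0.097 in library numbers 1 to 11 and -0.020 in 12 to 23, averaging -0.059, against a spread of 0.22 (SD) among mice of one group and run. Single mice decided its size. With each mouse left out in turn the difference lay between -0.17 (without stimulated 3) and -0.028 (without control 2) in library numbers 1 to 11, and between -0.11 (without stimulated 9) and 0.035 (without stimulated 5) in 12 to 23, where it was also above zero without stimulated 6 (0.019), stimulated 8 (0.027) or control 9 (0.00012). Without controls 1 to 3 it was 0.13 in library numbers 1 to 11, and the average of the runs turned to 0.053.

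Other genes of the same pathways, 105 of which were tested, also gave no adjusted p under 0.05. An unadjusted p under 0.05 was found for 13 of 105 (12.4%, near the 11.5% of all genes tested), 6 of them positive and 7 negative, and the median over all 105 was -0.036 on the log2 scale. By list, this was 1 of 16 interferon receptors and signalling genes, 2 of 12 nucleic acid sensors, 6 of 52 other interferon-stimulated genes (all lower), 1 of 15 other class I genes, 1 of 3 constitutive proteasome subunits and 2 of 7 class II genes. Of all 17524 genes tested, 955 were lower and 1060 higher with such a p. The 52 other interferon-stimulated genes had a median of -0.090, with 35 negative. The smallest p was that of Psme1, a subunit of the interferon-inducible proteasome activator, which ranged from 27.3 to 66.02 CPM (median 43.8) in control mice and from 33.3 to 70.9 CPM (median 45.1) in stimulated mice, with a log2 fold change of 0.24 ± 0.065 (SE), p = 0.00114, adjusted p = 0.313. H2-DMa, which edits peptides on class II molecules, ranged from 13.3 to 43.3 CPM (median 28.6) in control mice and from 22.2 to 45.03 CPM (median 28.3) in stimulated mice, with 0.30 ± 0.091 (SE), p = 0.00276, adjusted p = 0.329. Tlr3, a sensor of double-stranded RNA, ranged from 5.602 to 22.4 CPM (median 12.9) in control mice and from 5.23 to 20.3 CPM (median 12.01) in stimulated mice, with -0.38 ± 0.14 (SE), p = 0.00905, adjusted p = 0.349. The groups overlapped for all 3 genes. Class II genes had a positive median of 0.52, 6 of 7 being positive, with standard errors up to 0.35. Their interaction of group and run had a median of 0.77, 5 of 7 being positive. It had an unadjusted p under 0.05 for 1 of 7, against 8.01% of all genes. The receptor genes Ifnar1 (-0.033), Ifnar2 (-0.028) and Ifngr1 (0.024) and the kinases Jak1 (0.072) and Tyk2 (-0.016) lay close to zero, and Ifngr2, the second chain of the interferon-gamma receptor, was the 1 gene of its list with such a p (0.13, p = 0.024, adjusted p = 0.375).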

How the data were processed

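RNA from bulk ACC tissue of 22 mice was measured. Per the labels and the study's methods, the authors made libraries from 5 ng of total RNA with SMARTSeq v4, removed adapters from single-end reads (cutadapt 1.10), mapped these to mm10 (STAR 2.5.3a) and counted them per Ensembl gene (htseq-count 0.6.1p1); the strand setting is not given in the sources used here. The authors deposited raw counts, the same counts divided by size factors (a signal, not used here for tests) and the results of their own DESeq2 1.22.1 comparison (fold changes and p-values, not used).

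The raw counts were tested with edgeR 4.0.16 (R 4.3.3; TMM, glmQLFit, glmQLFTest), with the run of library numbers and group as terms, and Benjamini-Hochberg adjustment over the 17524 genes that had 10 or more counts in 10 or more mice. The study's methods fit batch and RNA integrity, which it lists in a supplement not used here and which are not among the labels; neither was fitted, and the run is the nearest term. CPM are counts scaled to library size with TMM factors, RPKM are CPM per kilobase of GENCODE M21 exon, and scores used a prior count of 2. Standard errors are the log2 fold change over the square root of F, and intervals are 1.96 standard errors. The group fit was also run on simulated counts with known changes, and its outcome is not given here. Replicate mice were counted once each; no 2 libraries differed by as little as sampling noise. Depth was 23090483 to 43668462 counts per mouse. Whether mice came from separate litters is not given in the sources used here, so p-values measure the spread between these samples.

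The 37 genes and all lists were chosen with earlier results of these data known. Values over the range of each group are given for the 10 genes with the smallest p between groups, the 8 with the largest called difference between runs, the 5 highest and 3 lowest in RPKM, and the 3 other pathway genes with the smallest p. Alternatives were group only, DESeq2 size factors, limma voom (3.58.1) with quality weights, the Wald test of DESeq2 1.42.0, no count minimum, 10 counts in every mouse, a replicate block, each run alone, each mouse left out, and, for the score, a prior count of 0.5 and the median over genes. The mitochondrial share as a covariate and the fit without controls 1 to 3 were added after seeing the data, as was the score with mice left out. Promoter windows are RefSeq's on GRCm38.p6, searched on both strands.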

Additional observations from a re-analysis of the deposited data

Results flagged for a closer look

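Each gene and the score were examined for a mouse far from the others within the 4 combinations of group and run (6, 4, 6 and 6 mice). Of 152 such sets 7 were flagged (4.61%), and chance flags about 1 in 20.

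Among the 4 stimulated mice of library numbers 1 to 11, stimulated 1 stood high in Irf9 (11.1 CPM, against 8.17 to 8.52 CPM in the other 3) and stimulated 2 high in Ifit2 (12.2 CPM, against 8.83 to 9.18 CPM). Stimulated 3 stood high in Tap1 (4.30 CPM, against 2.72 to 2.94 CPM). Stimulated 4 was low in Rsad2 (1.90 CPM, against 2.74 to 2.83 CPM), and stimulated 2 low in Ifi44 (0.489 CPM, against 1.06 to 1.216 CPM). In library numbers 12 to 23, control 7 was low in Ifi44 (0.742 CPM, against 1.21 to 1.61 CPM in the other 5 controls) and stimulated 7 high in Ifit2 (20.3 CPM, against 11.7 to 14.4 CPM in the other 5 stimulated mice). The interaction of group and run passed the threshold for 0 of the 37 genes in edgeR, at an unadjusted p under 0.05 as well, and for 1 by limma voom at an unadjusted p under 0.05.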

How the results depend on the processing

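At an adjusted p under 0.05 between groups, 0 of 37 genes passed under every alternative run, each left-out mouse included; of all genes 35 of 37571 passed by the DESeq2 Wald test and 1 of 17524 by limma voom, against 0 in edgeR with all mice. At an unadjusted p under 0.05 the count of 0 became 3 with limma voom (Psmb10, Ifi44, Usp18; 16.3% of all genes), 1 in library numbers 1 to 11 alone (Rsad2; 5.56%), 2 with the mitochondrial share (Psmb10, Ifi27; 10.6%), 1 without controls 1 to 3 (Psmb10; 7.99%), and 0 to 1 with each mouse left out (1 without control 2, control 4, or stimulated 2, 6, 7, 8, 9 or 10; Ifi27, Gbp3, Psmb10, Ifi44 or Rsad2). The interaction count of 0 became 1 with limma voom (Ifi35; 10.8% of all genes) and 0 to 2 with each mouse left out (2 without stimulated 1, 1 without control 9, stimulated 2 or stimulated 9; 5.94 to 10.2% of all genes). The 13 other pathway genes became 2 with group only and 2 in library numbers 1 to 11 alone, where the share of all genes also fell, from 11.5% to 3.61% and 5.56%, and 9 to 14 with each mouse left out (8.91 to 14.2% of all genes). The median over the 37 genes ranged from -0.089 to -0.0062 with each mouse left out, and turned to 0.031 with the mitochondrial share and 0.032 without controls 1 to 3; the 24 genes called between runs became 23 to 25 with each mouse left out. The Psmb9 value of -0.24 between groups was reversed to 0.0047 without controls 1 to 3. The average score difference of -0.059 ranged from -0.10 to -0.024 with each mouse left out and turned to 0.053 without controls 1 to 3. The causes were not tested.

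With a replicate block over replicates 1 to 10, 5 other pathway genes and 0 of the 37 had an unadjusted p under 0.05 (11.3% of all genes), and the median was -0.041. The numbers do not pair the mice: after group and run means were removed, same-numbered mice correlated at -0.13 to 0.27 (mean 0.051), above 0.1 in 3 of 10 pairs. Of the 37 genes, none of which was called between groups, 12 changed sign without controls 1 to 3, 9 with the mitochondrial share, 10 in library numbers 12 to 23 alone, 7 with group only and 0 to 5 with each mouse left out. The 24 called differences between runs kept their direction with the other size factors and tests, other count minimums, the mitochondrial share and without controls 1 to 3, and 10 values no longer passed, of which 6 arose with the mitochondrial share, 3 without controls 1 to 3 and 1 with no count minimum. Neither RNA integrity nor the batch was fitted here. The spread between mice limits what can be detected, with standard errors up to 0.22 log2 units.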
